A study of Mus musculus with 6 samples.

Results

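The complement system was examined in differentiated mouse fat cells with and without induced deletion of Tcf7l2, through 9 genes chosen by symbol among the 49671 genes of the count table: C3, Cfd, Cfb, C1ra, C1s1, C4b, C2, Serping1 and Cd55. All 9 were found and all 9 passed the filter on low counts. RNA-seq counts came from 6 libraries of preadipocytes that had been immortalised with SV40 large T antigen after sorting from the inguinal fat of C57BL/6 mice aged 3 months. All libraries, controls included, carried floxed Tcf7l2 and retroviral CreERT2, a Cre recombinase that is active only in the presence of 4-hydroxytamoxifen. The 3 control libraries, labelled wild type, were from cells given EtOH (ethanol), and the 3 knockout libraries were from cells given 4-hydroxytamoxifen, in both cases for 24 h and 2 days before differentiation was induced. Differentiation used 1 µM dexamethasone, 0.5 mM isobutylmethylxanthine and 5 µg/mL insulin, and RNA was taken on day 8. An agent at 5 nM is listed as well, under a code number that rises by 1 from each library to the next. Whether these numbers stand for different compounds cannot be settled from the labels. The labels do not say whether the line was 1 clone or whether libraries of a group were separate cultures, so the spread behind every p-value is that between these libraries and may be technical. Drug treatment and deletion coincide and cannot be told apart.

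Complement is a cascade of plasma proteins that tags and lyses targets. The classical pathway begins when C1q recruits the proteases C1r and C1s, which cut C4 and C2 to form a convertase of C3. The alternative pathway forms its own convertase from C3b and factor B after cleavage by factor D, and both routes meet at C3 and lead on to C5 and the membrane attack complex. The liver makes most circulating components, but some come mainly from other cells. One of these is factor D, which is also known as adipsin, is secreted mainly by adipocytes and is a classical marker of fat cell differentiation. C1 inhibitor (Serping1) inactivates C1r and C1s, and decay-accelerating factor (Cd55) takes convertases apart on the cell's own surface.

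In knockout cells C3, the alternative pathway protease genes Cfd and Cfb, and the inhibitor genes Serping1 and Cd55 were called higher, whereas the C1 protease genes C1ra and C1s1 were not called. C3 was 1.79-fold and Cfd 1.60-fold higher, followed by Cfb (1.42-fold), Serping1 (1.34-fold) and Cd55 (1.28-fold). C1s1 was at 0.990, C1ra at 1.07 and C4b at 1.27 times the control level, and C2 differed by 0.21 on the log2 scale; none of these 4 passed the test. In numbers, 5 of the 9 genes were called higher and 0 lower (edgeR, adjusted p under 0.05 over all tested genes), where 11.9% of the 14946 tested genes were called higher, 10.5% lower and 22.4% in either direction. With 1 library left out, 3 to 6 of the 9 genes were called: 3 without control replicate 1 (C3, Cfd and Serping1), 4 without control replicate 2 or knockout replicate 3, and 5 or 6 when 1 of the remaining libraries was left out. Leaving out control replicate 1 also lowered the count over all genes from 3346 to 2145, and leaving out knockout replicate 3 lowered it to 2178. The median log2 fold change of the 9 genes was 0.35, against -0.0017 over all tested genes. Together the 9 genes made up 0.209% to 0.227% of a control library and 0.279% to 0.284% of a knockout library.

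**Figure D1:**
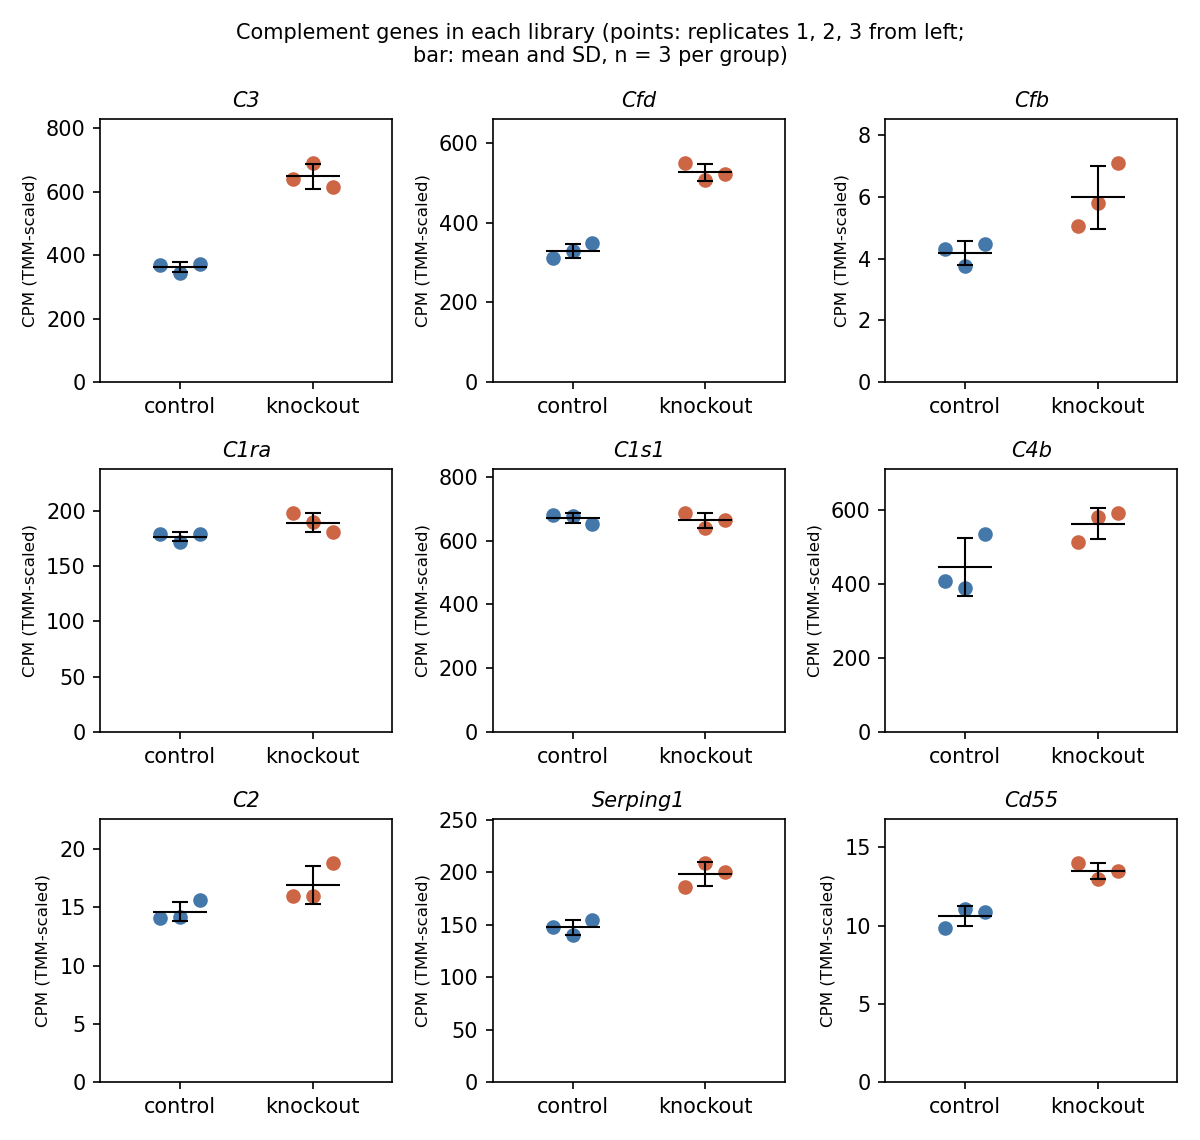
Level of each of the 9 genes in every library, in CPM (reads of a gene relative to its library's total, TMM-scaled; axes from 0), with points for replicates 1, 2 and 3 from the left and bars for mean and SD (n = 3 per group). C3 and Cfd lie clear of the controls in every knockout library, whereas the points of C1s1 overlap.

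Libraries held 26621293 to 33484764 counts, and 22087 to 22602 genes had at least 1 count. The first principal component (51.0% of the variance) separated the groups, and the second (15.9%) put control replicate 3 (-15.1) with knockout replicate 2 (-14.1), away from the other 4. The results for the 9 genes were therefore also computed without these libraries, which raised the number called from 5 to 7 by adding C4b and C2. Control replicate 3 was the highest control for both genes (535 and 15.6 CPM), so leaving it out widens their differences. Over all genes the same step raised the number called from 3346 of 14946 tested genes to 3957 of 15016. Tcf7l2 itself averaged 7.65 ± 1.49 CPM in control libraries and 6.12 ± 0.638 CPM in knockout ones (SD, n = 3). It did not pass the test (adjusted p = 0.125 in edgeR), and counts over a whole gene cannot show whether single exons were lost. All 7 adipocyte markers listed (Adipoq, Plin1, Fabp4, Cidec, Lipe, Pparg, Cebpa) were called higher, with a summed level of 5787 to 6047 CPM in the controls and 8430 to 10145 CPM in the knockouts. In bulk RNA a larger share of fat cells and more RNA per cell cannot be told apart, and the part of this rise in the complement results was not tested. Of 6 preadipocyte markers, 0 were called higher and 1 lower (Thy1), with sums of 2671 to 3130 CPM among controls and 2718 to 3387 CPM among knockouts. These sums join markers that moved in opposite directions. Pdgfra was lower in every knockout library (means of 1247 and 1135 CPM) and Ly6a higher (671 and 918 CPM), both not called. Col1a1 ran from 463 to 1097 CPM within the knockouts. Leukocyte markers were at 4.89 to 6.25 CPM in sum in control and 5.08 to 6.31 CPM in knockout libraries. Of the 8 listed, 4 passed the filter on low counts and 0 were called. Csf1r had 67 to 114 and Cd68 31 to 64 counts per library, whereas Adgre1 was at 0 and Ptprc at 0 to 2 counts. The 4 endothelial markers summed to 23.1 to 25.0 CPM among controls and 26.6 to 28.1 CPM among knockouts; Kdr was called higher, while Pecam1 and Cdh5 had at most 6 counts. Of the rest, the 3 mesothelial and 3 erythroid markers were below the filter on low counts.

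C3 is the protein on which both pathways converge (ENSMUSG00000024164, GRCm38 chromosome 17, 57203970 to 57228136, minus strand). Its level was 368, 345 and 374 CPM in the control libraries and 640, 690 and 615 CPM in the knockout libraries. The groups do not overlap, and the lowest knockout library is well above the highest control. The means were 362 ± 15.1 and 648 ± 38.3 CPM (SD, n = 3), a rise of 0.84 on the log2 scale (adjusted p = 4.93e-07 in edgeR, SE 0.054), with a 95% interval of 1.65- to 1.94-fold.

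Cfd encodes factor D, the protease that cuts factor B (ENSMUSG00000061780, chromosome 10, 79890853 to 79892655, plus strand). Control libraries held 311, 328 and 348 CPM and knockout libraries 549, 507 and 523 CPM. No control library reached the knockout range. The rise was 0.68 on the log2 scale (adjusted p = 1.71e-06 in edgeR, SE 0.053), from 329 ± 18.3 to 526 ± 21.2 CPM, with a 95% interval of 1.48- to 1.73-fold. Both calls held in all 14 alternative fits.

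C3 and Cfd had the largest rises of the 9 genes, so their promoter windows are printed here, with that of C1s1, which was not called, for comparison. The RefSeq table of promoters (GRCm38.p6) holds windows from 250 bases before to 50 after the start for 5 of the 9 genes: C3, Cfd, C1s1 (with 2 starts), C1ra and Cd55. Capitals mark matches, on either strand, to 6 short motifs: CTTTGA (TCF/LEF), TTGCNNAA (C/EBP), GGGANTTCC (NF-kB), TTCNNNGAA (STAT), AGGTCA (nuclear receptor half-site) and ACANNNTGT (glucocorticoid receptor). The windows lie at chr17:57228087-57228386 (C3, minus strand), chr10:79890603-79890902 (Cfd, plus strand) and chr6:124542310-124542609 (C1s1, minus strand, the first of its 2 windows), and are written 5′ to 3′ on the gene's strand.
C3: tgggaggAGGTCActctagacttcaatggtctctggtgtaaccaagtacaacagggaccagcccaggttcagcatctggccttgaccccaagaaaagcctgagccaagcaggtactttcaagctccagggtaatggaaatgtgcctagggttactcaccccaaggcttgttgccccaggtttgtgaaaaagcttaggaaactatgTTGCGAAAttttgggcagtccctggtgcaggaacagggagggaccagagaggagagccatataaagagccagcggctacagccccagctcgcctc
Cfd: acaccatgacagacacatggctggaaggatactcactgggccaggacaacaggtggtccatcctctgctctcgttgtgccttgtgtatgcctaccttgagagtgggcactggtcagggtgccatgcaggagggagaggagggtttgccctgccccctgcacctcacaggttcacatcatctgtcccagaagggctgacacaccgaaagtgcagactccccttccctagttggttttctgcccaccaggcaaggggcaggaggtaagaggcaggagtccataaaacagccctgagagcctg
C1s1: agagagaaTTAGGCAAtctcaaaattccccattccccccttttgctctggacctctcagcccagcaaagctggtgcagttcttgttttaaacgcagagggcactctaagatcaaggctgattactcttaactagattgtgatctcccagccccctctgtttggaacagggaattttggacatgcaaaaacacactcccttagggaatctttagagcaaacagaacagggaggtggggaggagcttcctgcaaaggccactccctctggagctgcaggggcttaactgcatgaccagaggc

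CTTTGA, the letters bound by the TCF/LEF family to which Tcf7l2 belongs, was in 0 of the 6 windows, where 16% of all 32851 promoter windows in the table hold it. The C3 window holds the C/EBP letters as TTGCGAAA from base 206 and AGGTCA from base 8. The Cfd window holds none of the 6 motifs. C/EBP letters were also found in the first C1s1 window and in C1ra (10.8% of all windows), and STAT letters in C1ra (8.3%). The NF-kB letters (1.68% of all windows) and the glucocorticoid receptor letters (6.85%) were in 0 of the 6, and AGGTCA is in 16.3% of all windows. No matches overlapped each other. A match describes letters, and its absence covers only these 300 bases.

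Cfb encodes factor B, the protease subunit of the alternative convertase (ENSMUSG00000090231, chromosome 17, 34856374 to 34862518, minus strand). It was far less abundant, at 4.32, 3.76 and 4.48 CPM in the controls and 5.05, 5.80 and 7.09 CPM in the knockouts. Every knockout library lies above the controls, the first of them by a narrow margin. Cfb rose by 0.51 on the log2 scale (adjusted p = 0.0174 in edgeR, SE 0.14), from 4.18 ± 0.381 to 5.98 ± 1.03 CPM. The call was lost without control replicate 1 (adjusted p = 0.0591), control replicate 2 (0.0843) or knockout replicate 3 (0.0978), with a range of 9.0e-04 to 0.0978 over the 14 alternatives. Of its exonic bases, 79.5% also lie in exons of Gm20547, annotated on the same strand across Cfb and C2, which had 0 counts in every library. Reads from these shared bases were thus not counted for Gm20547. Whether they were left out or counted for Cfb and C2 is unknown here, so the levels of both may be too low.

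The proteases of the C1 complex were abundant and close to control. C1s1 (ENSMUSG00000038521, chromosome 6, 124530345 to 124542359, minus strand) was at 681, 677 and 651 CPM in the controls and 686, 639 and 665 CPM in the knockouts. The ranges overlap almost wholly. On the log2 scale the difference was -0.014 (adjusted p = 0.869 in edgeR, SE 0.047), with a 95% interval of 0.923- to 1.06-fold, which does not reach the interval of C3 or Cfd. C1ra (ENSMUSG00000055172, chromosome 6, 124512405 to 124523443, plus strand), its partner, is the protease that activates C1s. Its levels were 179, 172 and 179 CPM in the controls and 198, 190 and 181 CPM in the knockouts. All knockout libraries are above the controls, the nearest by a margin smaller than the SD, and C1ra was not called (a log2 difference of 0.10, SE 0.048, adjusted p = 0.16 in edgeR, 95% interval 0.998- to 1.15-fold). The genes are convergent neighbours, 6901 bases apart on opposite strands, each with a close paralog. Of the 50-base stretches in its transcripts, C1ra shares 48% with C1rb and C1s1 shares 21.8% with C1s2. Reads that lie wholly within shared sequence cannot be placed with certainty. How many do depends on the read length, which is not given here. Exons of Gm16567 on the opposite strand cover 18.4% of C1s1's exonic bases, with at most 4 counts in any library.

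C4b and C2, the substrates of C1s, gave values above control that did not pass. C4b (ENSMUSG00000073418, chromosome 17, 34728380 to 34743882, minus strand) was at 410, 391 and 535 CPM in the controls and 515, 582 and 593 CPM in the knockouts. Control replicate 3 reaches into the knockout range, while the other control libraries lie below it. The difference was 0.34 on the log2 scale (adjusted p = 0.109 in edgeR, SE 0.13), from 445 ± 78.5 to 563 ± 41.8 CPM, with an exact 2-sided permutation p of 0.2 (0.1 is the smallest possible). Leaving out control replicate 3 gave 0.49 (adjusted p = 0.000294 in edgeR), and without it and knockout replicate 2 it was 0.47 (adjusted p = 5.10e-05). Control replicate 3 was the highest control for C4b, so leaving it out had to raise the difference. The pair was picked from these same data, and its fit had a library fewer in each group. Limma-voom called it as well (adjusted p = 0.0248), and the adjusted p ran from 5.10e-05 to 0.346 over the 14 alternatives. C4b shares 34.6% of its 50-base stretches with C4a, which lies 65209 bases away and had 8 to 18 counts per library against 11030 to 18270 for C4b.

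C2 (ENSMUSG00000024371, chromosome 17, 34862604 to 34898265, minus strand) is the protease subunit of the classical convertase and a paralog of Cfb, from which it is 85 bases away. It was at 14.1, 14.2 and 15.6 CPM in the controls and 16.0, 16.0 and 18.8 CPM in the knockouts. The groups do not overlap, but the gap is small. The difference was 0.21 on the log2 scale (adjusted p = 0.0991 in edgeR, SE 0.086, 95% interval 1.02- to 1.32-fold, not adjusted for the number of genes). C2 was called in 1 of 14 alternatives, without control replicate 3 and knockout replicate 2 together (adjusted p = 0.0192, range 0.0192 to 0.384). Of its exonic bases, 42.8% lie in Gm20547 and 4.16% on the opposite strand of Zbtb12, which had 242 to 378 counts per library.

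Both inhibitors were called higher. Serping1, the C1 inhibitor gene (ENSMUSG00000023224, chromosome 2, 84765387 to 84775444, minus strand), was at 148, 141 and 155 CPM in the controls and 186, 209 and 201 CPM in the knockouts. The groups are clearly apart. Serping1 rose by 0.43 on the log2 scale (adjusted p = 8.34e-05 in edgeR, SE 0.055), from 148 ± 7.13 to 198 ± 11.9 CPM, and it was called in all 14 alternatives. Cd55 (ENSMUSG00000026399, chromosome 1, 130439027 to 130462744, minus strand) was at 9.86, 11.1 and 10.8 CPM in the controls and 14.0, 13.0 and 13.5 CPM in the knockouts. Here too no library crosses between the groups, at a level of 288 to 419 counts. Cd55 rose by 0.35 on the log2 scale (adjusted p = 0.00735 in edgeR, SE 0.083). Without control replicate 1 the call was narrowly lost (adjusted p = 0.0505, range 0.00176 to 0.0505). Its paralog Cd55b, with which it shares 8% of its 50-base stretches, had 0 counts in every library.

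In all, the groups did not overlap for 7 of the 9 genes, all with the knockout higher, where 18.5% of tested genes separate in that direction, 19.3% in the other and 37.9% in either. The exceptions were C1s1 and C4b.

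**Figure D2:**
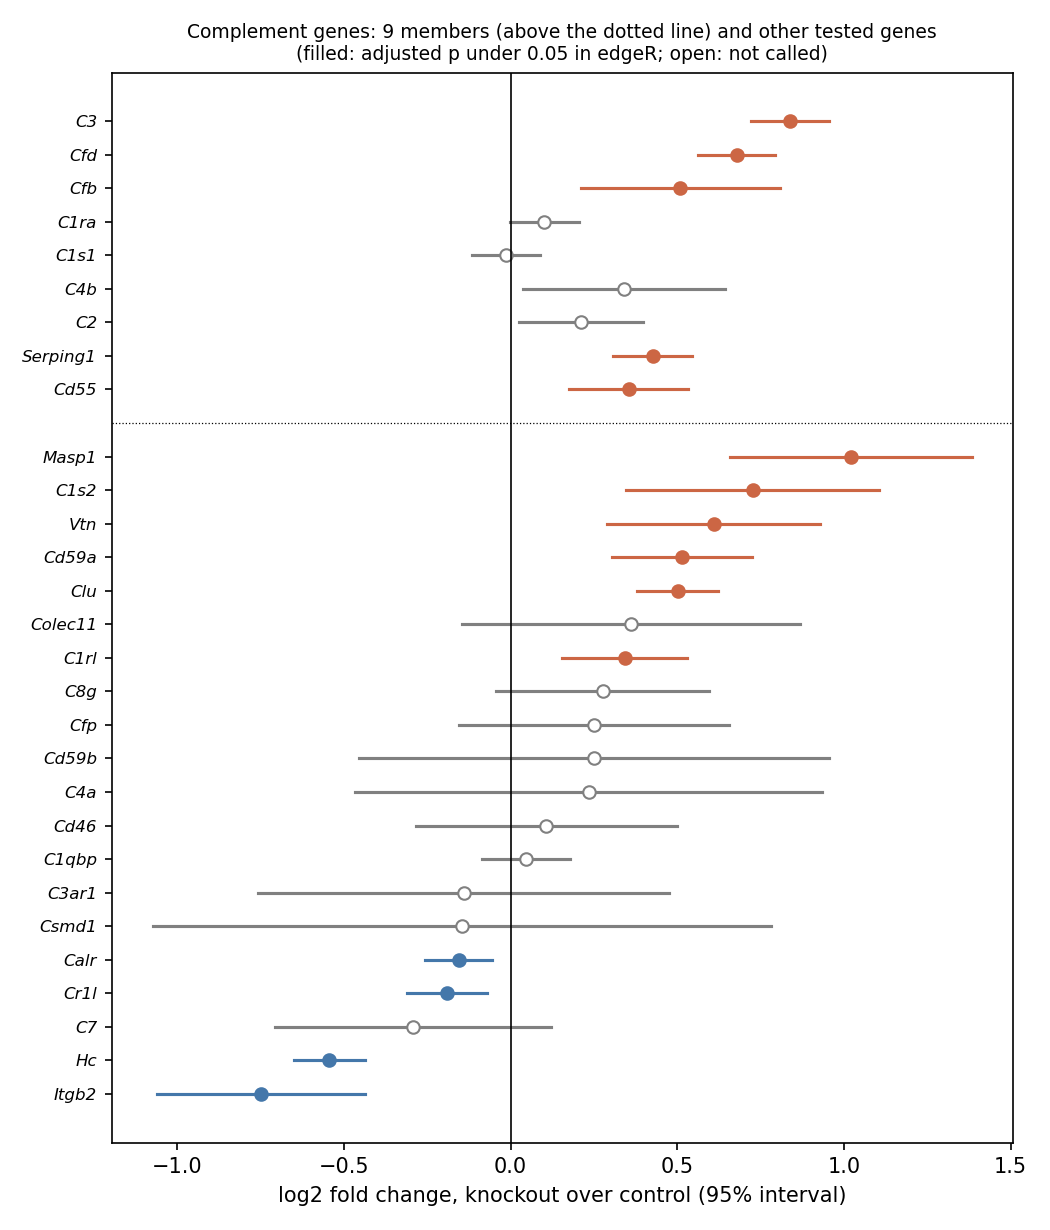
Log2 fold change, knockout over control, with its 95% interval from edgeR (not adjusted for the number of genes), for the 9 genes above the dotted line and other tested complement genes below it; filled points were called at an adjusted p under 0.05. C3 (0.84) and Cfd (0.68) lead the 9 genes, and Hc (-0.54) and Itgb2 (-0.75) are the lowest of the rest.

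Levels of different genes are comparable only per length, so CPM were divided by the kilobases (kb) of merged exons. On this scale Cfd was the most abundant of the 9 genes, at 357 ± 19.8 CPM per kb in control and 571 ± 23 in knockout libraries (SD, n = 3). It ranked 48th among the 14917 tested genes with a length. C1s1 came next (214 ± 5.14 and 212 ± 7.58 CPM per kb, rank 137). In control cells C4b (78.2 ± 13.8), C3 (70.5 ± 2.93), Serping1 (63.5 ± 3.07) and C1ra (59.3 ± 1.3 CPM per kb) followed, and in that order C4b and C3 did not differ beyond their spread. In knockout cells the order among these was C3 (126 ± 7.45), C4b (98.9 ± 7.35), Serping1 (85.4 ± 5.11) and C1ra (63.5 ± 2.92 CPM per kb), so that C3 stood above C4b. C4b shares 34.6% and C1ra 50.8% of its 50-base stretches with other genes, and C3 and Serping1 share 0%. Their order may therefore depend on how reads from shared stretches were placed. The remaining genes were far lower: C2 at 3.78 ± 0.216 and 4.37 ± 0.422, Cd55 at 2.18 ± 0.132 and 2.78 ± 0.105, and Cfb at 1.48 ± 0.135 and 2.12 ± 0.366 CPM per kb in control and knockout libraries. The order among C2, Cd55 and Cfb is not settled. Gm20547 covers 79.5% of the exonic bases of Cfb and 42.8% of those of C2, and reads from them may be missing. The convertase partners were thus at unequal levels: C3 and C4b were high while Cfb and C2, within the limit on overlapping reads given above, were low.

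**Figure D3:**
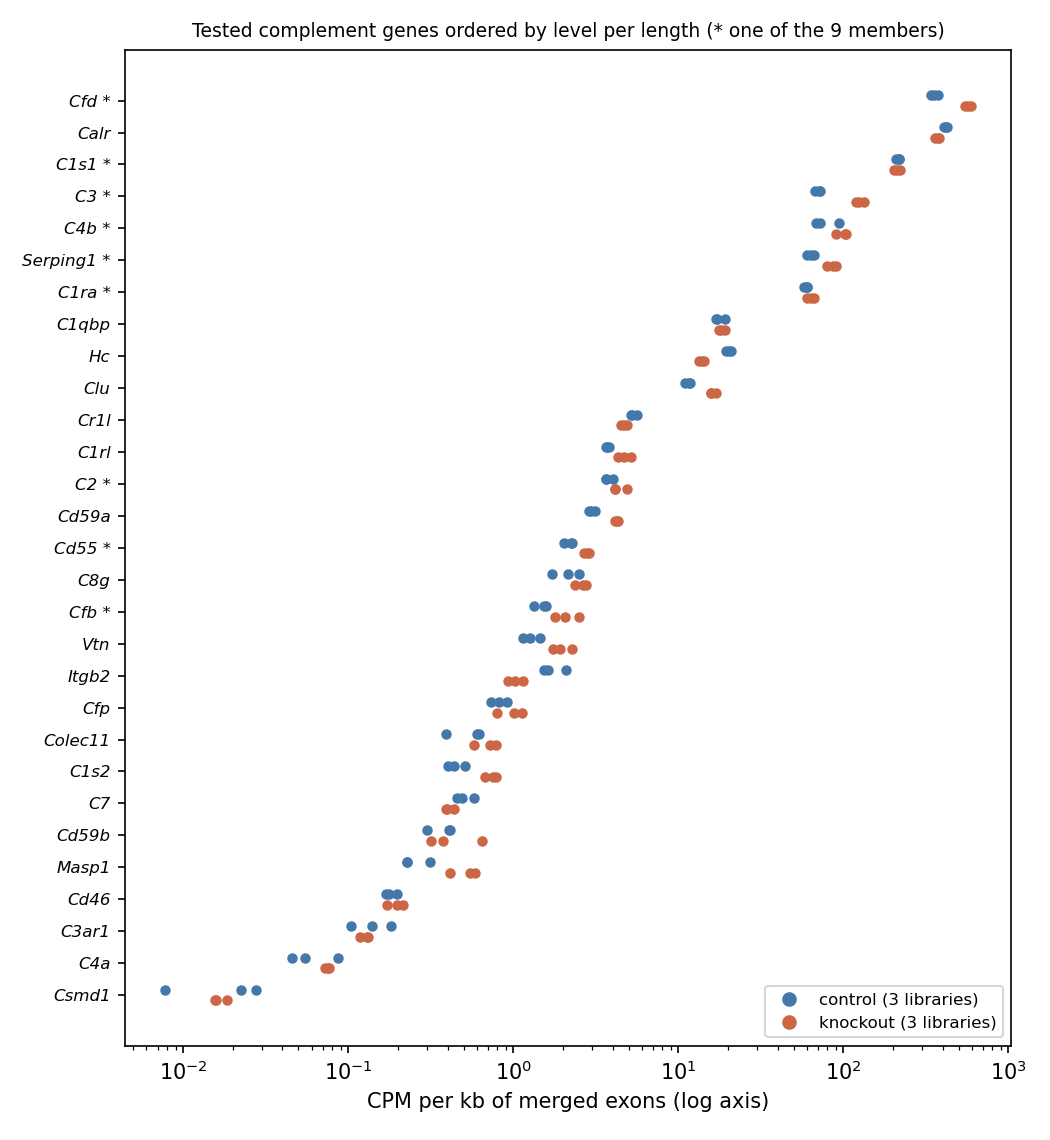
Level of the 9 genes and of other tested complement genes in every library, as CPM per kb of merged exons on a log axis, ordered by their mean; asterisks mark the 9 genes. Cfd lies at the top, 6 of the 9 genes lie above 50 CPM per kb, and C2, Cd55 and Cfb lie below 5.

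Ratios of 2 genes within the same library do not depend on how libraries are scaled. There were 5 such ratios, tested by exact 2-sided permutation with Benjamini-Hochberg adjustment over the 5. As the smallest possible p is 0.1, none of them could pass at 0.05, and a ratio that did not pass is not shown to be equal. C1s1 exceeded C1ra 3.65- to 3.93-fold in control and 3.37- to 3.68-fold in knockout libraries, in counts not scaled for length (log2 difference -0.11, p = 0.2, adjusted p = 0.5, exact test). The size of this ratio may also depend on shared stretches, which make up 21.8% of C1s1 and 50.8% of C1ra. Cfb was at 0.265 to 0.307 of the C2 count in control and 0.317 to 0.378 in knockout libraries. These groups do not overlap (log2 difference 0.30, exact p = 0.1, the smallest 3 against 3 libraries can give, adjusted p = 0.5). The ratio of C3 to Cfd ran from 1.05 to 1.18 among controls and from 1.17 to 1.36 among knockouts, and the rises of the pair were not shown to differ (log2 difference 0.16, exact p = 0.3, adjusted p = 0.5).

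Set against the adipocyte gene Adipoq, which encodes adiponectin, Cfd counts were 0.513, 0.555 and 0.627 of Adipoq counts in control libraries. In knockout libraries they were 0.536, 0.534 and 0.532. The knockout values fall inside the control range, and the log2 difference was -0.076 (exact p = 0.6, adjusted p = 0.75). C4b counts were 744 to 1496 times those of C4a in control and 1063 to 1270 times in knockout libraries, with overlap (exact p = 1, adjusted p = 1).

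**Figure D4:**
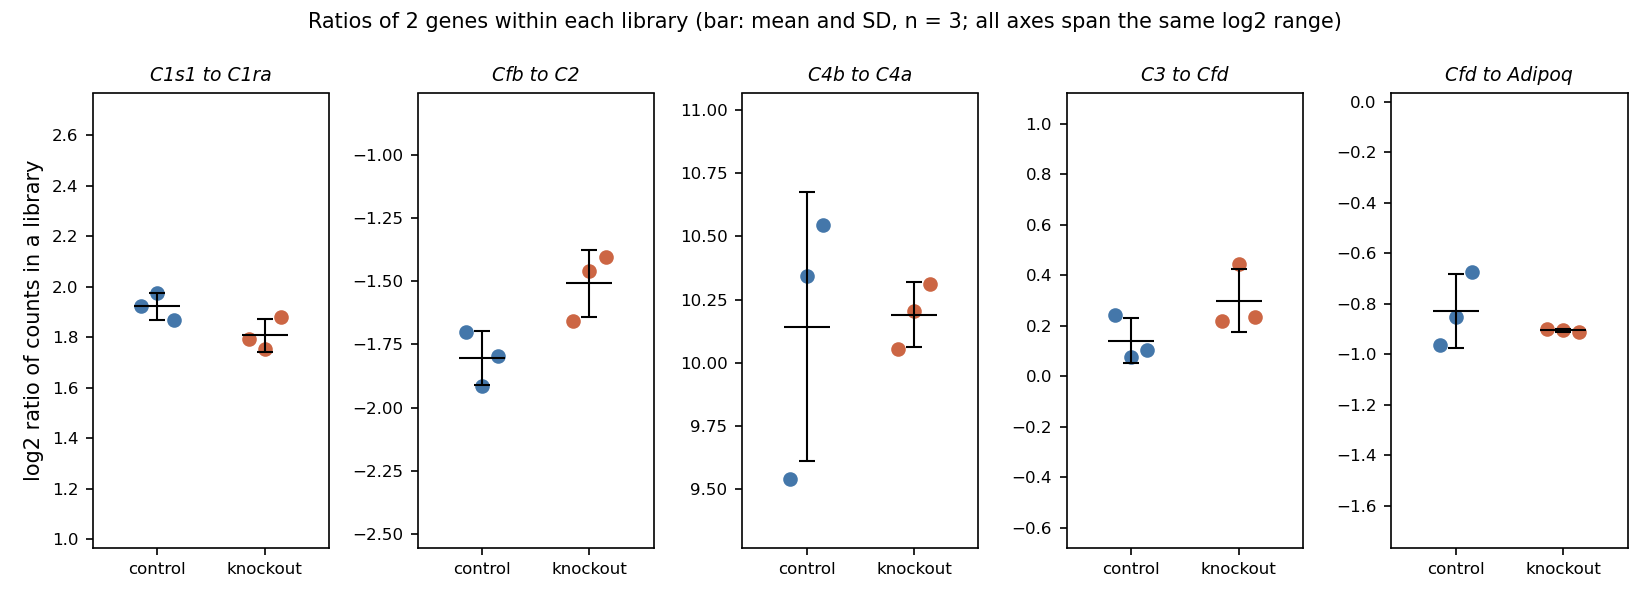
Log2 ratio of the counts of 2 genes within each library, for 5 pairs, with mean and SD (n = 3 per group); every axis spans the same number of log2 units. Cfb to C2 is the pair whose groups do not overlap, and Cfd to Adipoq is nearly constant across the knockout libraries (0.532 to 0.536).

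Of 52 other genes of the complement system, 51 are in the table and 21 passed the filter on low counts. Of these 21, 6 were called higher, 4 lower and 11 were not called, against 22.4% of all tested genes called in either direction; their median log2 fold change was 0.23. Upstream of C4 and C2, the lectin pathway protease gene Masp1 rose most, from 2.52 ± 0.494 to 5.08 ± 0.877 CPM (2.03-fold, edgeR adjusted p = 6.26e-04). By alternative splicing the gene also encodes MASP-3, which activates pro-factor D, and counts per gene do not separate these products. C1s2, the paralog of C1s1, rose from 1.20 ± 0.144 to 1.97 ± 0.159 CPM (1.65-fold), but was not called by DESeq2 or without control replicate 1 (adjusted p up to 0.0553, range 0.00443 to 0.0553). C1rl, which encodes a C1r-like protease, was 1.27-fold higher and was not called without control replicate 1 or knockout replicate 1 (the adjusted p ran from 0.00212 to 0.0544 over the alternatives). The C1q chains C1qa, C1qb and C1qc had 0 counts in all 6 libraries, which allows at most 0.0893 to 0.113 CPM (3 counts per library, for counting error only). The lectin pathway genes Mbl1 and Fcna were also at 0.

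Hc, downstream of C3, was lower in knockout cells. It encodes C5, from which the anaphylatoxin C5a and the seed of the membrane attack complex are cut (ENSMUSG00000026874, chromosome 2, 34983331 to 35061438, minus strand). It was at 122, 128 and 131 CPM in the controls and 90.2, 83.9 and 87.2 CPM in the knockouts. No library crosses between the groups. The gene was 1.46-fold lower (-0.54 on the log2 scale, SE 0.049, adjusted p = 4.72e-06 in edgeR), and this held in all 14 alternatives. C8g was at 3.16 ± 0.581 and 3.86 ± 0.295 CPM and did not pass (adjusted p = 0.214 in edgeR), and C8a and C8b had 0 counts in every library.

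Regulators other than Serping1 and Cd55 moved in both directions. Among fluid-phase inhibitors of the membrane attack complex, clusterin (Clu) rose 1.41-fold from 39.4 ± 1.43 to 55.7 ± 2.44 CPM (edgeR adjusted p = 2.60e-05) and vitronectin (Vtn) 1.53-fold from 2.61 ± 0.311 to 4.01 ± 0.551 CPM (adjusted p = 0.00927). Cd59a, which blocks assembly of that complex on the cell surface, rose 1.43-fold from 5.40 ± 0.224 to 7.70 ± 0.18 CPM (adjusted p = 0.00171). Cr1l, the rodent membrane regulator also called Crry, fell 1.14-fold from 55.3 ± 2.42 to 48.4 ± 1.94 CPM (edgeR adjusted p = 0.0248). That call was lost without control replicate 2 or knockout replicate 1 (the adjusted p ran from 0.0216 to 0.106 over the alternatives).

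Among receptors, Itgb2, the beta chain of the leukocyte integrins that include complement receptor CR3, fell 1.68-fold from 5.33 ± 0.89 to 3.16 ± 0.331 CPM (edgeR adjusted p = 0.00199). Its alpha chain Itgam had at most 2 counts in any library. Calr, mainly a chaperone of the endoplasmic reticulum and also a receptor for C1q, fell 1.11-fold from 1196 ± 22.8 to 1073 ± 32.4 CPM (edgeR adjusted p = 0.0286). Its call was lost when control replicate 1, control replicate 3 or knockout replicate 3 was left out, and without control replicate 3 and knockout replicate 2 together (adjusted p of 0.0137 to 0.11 over the alternatives). C1qbp was at 50.1 ± 3.46 and 51.7 ± 2.32 CPM and did not pass (adjusted p = 0.639 in edgeR). The receptor for C5a, C5ar1, had at most 1 count.

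Over the 6 libraries, the genes whose log2 CPM followed C3 most closely among 8087 genes of at least moderate abundance were Miga2 (Pearson r = 0.998) and Aplp2 (0.998). For Cfd they were Cisd3 (0.99955) and Rab3d (0.999), and for Cfb Nradd (0.992) and Abraxas1 (0.991). These correlations describe 6 libraries in 2 groups and were not tested. Nradd and Abraxas1 were not called between the groups (edgeR adjusted p = 0.162 and 0.121).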

How the data were processed

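RNA was prepared with a stranded total RNA kit after ribosomal RNA depletion, per the labels' protocols. The deposited file holds raw counts per Ensembl gene, 1 column per library, matched by the library number in its title. GRCm38, featureCounts 1.5.1, STAR 2.5.2b and DESeq2 1.16.0 are listed without a role, per the submitters' processing notes; the sources used here do not give the annotation release, strand setting or treatment of ambiguous reads. Positions, exon lengths and overlaps are from GENCODE release M21 (GRCm38).

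The test was that of edgeR 4.0.16 under R 4.3.3 (robust quasi-likelihood F-test, TMM scaling, filterByExpr, group as the only term, Benjamini-Hochberg over 14946 genes, threshold 0.05). SE is the log2 fold change divided by the square root of F. The 9 genes and all lists were chosen with earlier results of these data known. Besides the 9 genes and Tcf7l2, other complement genes were named if called and averaging 0 or more in log2 CPM, plus the 3 most abundant per kb that were not called, of which 1 is not reported here; likeness was computed for the 3 called members with the largest changes, among genes averaging 4 or more in log2 CPM. C4a was a ratio partner; genes named for 0 or few counts were chosen after their values were seen. Ratios used counts plus 0.5. Library pairs of a group differed beyond sampling noise (chi-square per degree of freedom 3.99 to 13.5). The procedure was tested on simulated data, but the outcome is not reported here and no error rate is claimed from it.

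Alternatives were DESeq2 size factors, upper-quartile and total count scaling, no filter, a CPM of at least 1 in 3 libraries, DESeq2 1.42.0, limma-voom (limma 3.58.1), an adjusted p of 0.01, each library left out, and control replicate 3 with knockout replicate 2 left out.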

Additional observations from a re-analysis of the deposited data

How the results depend on the processing

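For 23 genes (the 9 genes, 13 other complement genes and Tcf7l2) under up to 14 alternative fits, 299 of 320 fold changes kept their direction and their side of the threshold, 14 lost the call, 5 gained it and 2 changed sign. The sign changes were in genes that were not called: C1s1 without knockout replicate 2 (log2 fold change range -0.039 to 0.012 with 1 library left out) and C1qbp without control replicate 3 and knockout replicate 2 together (-0.012). The ratio differences changed sign for C4b to C4a (-0.26 to 0.25 with 1 library left out) and Cfd to Adipoq (-0.14 to 0.0013). Of the 9 genes, 3 to 6 were called with 1 library left out, 3 of them without control replicate 1 (C3, Cfd and Serping1). Of all genes, 2145 to 3475 were called with 1 library left out, with 2145 without control replicate 1 and 2178 without knockout replicate 3; an adjusted p under 0.01 called 1934. Tcf7l2 was called without control replicate 2 (log2 fold change -0.46, edgeR adjusted p = 0.0322; range 0.0322 to 0.377). No paired analysis was possible because the labels give only library numbers, none of which occurs in both groups; the replicate numbers 1 to 3 used here follow accession order and pair no samples. At 8 to 18 counts per library, small differences in C4a were not detectable.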

Other observations

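Chosen after its values were seen, the surface antigen gene Ly6a (Sca-1), one of the markers by which the parent cells had been sorted, was at 643, 572 and 797 CPM in the control libraries and 821, 948 and 986 CPM in the knockout libraries. Control replicate 3 was the highest control and knockout replicate 3 the highest knockout library for Ly6a, as they were for C4b (535 and 593 CPM), C2 (15.6 and 18.8 CPM) and Cfb (4.48 and 7.09 CPM). Of these 4 genes, Cfb was called in the fit of all libraries (edgeR adjusted p = 0.0174), and Ly6a, with an adjusted p of 0.0539, C4b and C2 were not. Among the controls, C3, Cfd and Serping1 were also highest in control replicate 3 (374, 348 and 155 CPM). C1s1 and C1ra were highest in control replicate 1 and Cd55 in control replicate 2. Among the knockouts the other members differed: C3 and Serping1 were highest in knockout replicate 2, and Cfd, C1s1, C1ra and Cd55 in knockout replicate 1. The share of all tested genes with the order of Ly6a is not given here.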
